A study of Mus musculus with 6 samples.

Results

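The 10 genes described here encode proteins of noncanonical Wnt signaling and planar cell polarity: the receptor kinases Ror1, Ror2, Ryk and Ptk7, the transmembrane polarity proteins Vangl1, Vangl2 and Celsr2, the cytoplasmic polarity proteins Prickle1 and Prickle2, and the formin Daam1. They were chosen by name for their known roles, with earlier results of these data known, and are 10 of the 36047 mouse genes to which the deposited transcript counts could be joined. All 10 were among the 20094 genes with enough counts to be tested. Infarct tissue of C57BL6 mice aged 12 weeks was sequenced 48 h after ischemia/reperfusion (I/R), an injury in which a coronary artery is closed and reopened. One group of 3 mice received LGK974, a small molecule inhibitor of Porcupine, which lipidates Wnt proteins in the endoplasmic reticulum so that they can be secreted, by oral gavage. The other group of 3 mice received the vehicle dimethyl sulfoxide (DMSO). Both groups underwent I/R, and uninjured tissue was not analysed here, so the comparison describes the drug within injured tissue and not the injury.

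Noncanonical Wnt signaling does not act through β-catenin. Wnt5a and related ligands bind Frizzled receptors together with Ror1, Ror2, Ryk or Ptk7 and act on the cytoskeleton through Dishevelled, the formin Daam1 and the kinase JNK, or on calcium. Planar polarity proteins sort to opposite sides of a cell, with Vangl and Prickle on one side and Frizzled and Dishevelled on the other, joined across cell borders by Celsr cadherins. In the developing heart these genes are known for their part in outflow tract formation.

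The members' annotated transcripts differ in short coding exons and in their start sites, and the sequences of the most abundant pairs are shown because the transcript results below turn on them. Daam1 has an exon of 27 bases, or 9 codons, at chr12:71958747-71958773 (GRCm38, plus strand) that is present in the transcripts Daam1-201 and Daam1-205 and absent from Daam1-202. Ryk has 9 bases, or 3 codons, at the start of a coding exon at chr9:102885994-102886002 (GRCm38, plus strand) that are present in Ryk-203 and absent from Ryk-201. Each is given 5′ to 3′ with 15 bases on each side, and capitals mark the bases that differ.
Daam1 with the exon: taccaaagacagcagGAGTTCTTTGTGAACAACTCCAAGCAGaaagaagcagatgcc
Daam1 without the exon: taccaaagacagcagaaagaagcagatgcc
Ryk with the 9 bases: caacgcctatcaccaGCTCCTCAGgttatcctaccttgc
Ryk without the 9 bases: caacgcctatcaccagttatcctaccttgc

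Prickle1 and Daam1 each have a pair of annotated start regions that give rise to their main transcripts. Prickle1-201 starts 11 bases downstream of the upstream RefSeq start, and Prickle1-202 within 3 bases of the downstream one. Daam1-205 starts 10 bases downstream of the upstream RefSeq start, and Daam1-202 starts 187 bases downstream of the other. The promoter sequences, 300 bases each from RefSeq (GRCm38.p6), are given 5′ to 3′ on the strand of the gene with the dinucleotide CG in capitals. They lie at chr15:93595853-93596152 and chr15:93519471-93519770 on the minus strand for Prickle1 and at chr12:71830818-71831117 and chr12:71889293-71889592 on the plus strand for Daam1.
Prickle1 upstream start: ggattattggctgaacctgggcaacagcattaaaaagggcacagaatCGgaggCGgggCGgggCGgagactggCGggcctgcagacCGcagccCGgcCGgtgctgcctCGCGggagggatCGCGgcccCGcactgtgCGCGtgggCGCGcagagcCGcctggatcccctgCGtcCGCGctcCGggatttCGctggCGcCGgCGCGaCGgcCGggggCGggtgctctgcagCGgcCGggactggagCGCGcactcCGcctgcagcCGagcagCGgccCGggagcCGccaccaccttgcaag
Prickle1 downstream start: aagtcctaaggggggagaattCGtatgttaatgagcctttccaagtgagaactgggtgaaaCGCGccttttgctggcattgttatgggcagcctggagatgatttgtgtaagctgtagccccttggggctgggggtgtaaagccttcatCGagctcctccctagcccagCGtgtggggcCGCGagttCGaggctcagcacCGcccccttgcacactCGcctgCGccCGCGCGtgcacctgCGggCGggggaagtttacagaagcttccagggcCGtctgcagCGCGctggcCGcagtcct
Daam1 upstream start: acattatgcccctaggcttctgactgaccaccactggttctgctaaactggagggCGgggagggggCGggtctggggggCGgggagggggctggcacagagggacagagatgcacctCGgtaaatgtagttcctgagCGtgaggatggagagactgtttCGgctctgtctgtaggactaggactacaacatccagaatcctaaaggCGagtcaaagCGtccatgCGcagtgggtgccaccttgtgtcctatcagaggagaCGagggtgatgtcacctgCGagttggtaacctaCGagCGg
Daam1 downstream start: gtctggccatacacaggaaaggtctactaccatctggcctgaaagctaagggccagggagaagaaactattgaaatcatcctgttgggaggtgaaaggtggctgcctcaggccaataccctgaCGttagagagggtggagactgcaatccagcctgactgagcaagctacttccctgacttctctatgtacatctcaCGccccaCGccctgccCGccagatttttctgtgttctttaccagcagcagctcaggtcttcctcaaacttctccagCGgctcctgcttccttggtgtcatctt

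These windows differ in their content of CG, which marks CpG island promoters. The upstream Prickle1 window held 39 CG, and 4.45% of the 32851 promoters of the table held as many. The downstream Prickle1 window held 20 (26.5% of promoters held as many), and the Daam1 windows held 13 (37.9%) and 5 (62%), where the median promoter held 7. RefSeq windows were found for 9 of the 10 members, and Vangl1 had no entry.

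The libraries held 41579787 to 80398211 estimated counts each, and mitochondrial genes took 28.2 to 53.7% of them. DMSO replicate 1 stood apart from the others: its log2 CPM correlated with those of the other libraries at 0.841 to 0.925, against 0.923 to 0.966 for all other pairs. It also held counts on 98.9% of 1780 chemosensory receptor genes, which have no known use in the heart, against 53 to 82.8% elsewhere. The median level of these genes, taken as the background of a library and given per kb of transcript, was 31.5 counts in DMSO replicate 1, 10.5 and 1.83 in DMSO replicates 2 and 3, and 9.83, 2.82 and 0.882 in LGK974 replicates 1, 2 and 3. Defining markers of heart tissue were present, with summed levels of 12 cardiomyocyte markers of 20578 to 29977 CPM (counts scaled to a common library size) under LGK974 and 26517 to 35789 under DMSO. All 12 leukocyte markers were higher with LGK974 (487 to 633 against 214 to 307 CPM in sum), as were all 11 fibroblast markers (3564 to 6088 against 1768 to 2581 CPM). The groups did not overlap for 11 leukocyte and 5 fibroblast markers, beside 10.7% of all tested genes that were higher without overlap. The fibroblast log2 fold changes ran from 0.0054 (Dcn) to 1.56 (Postn), and Col1a1, Col1a2 and Col3a1 made up most of the sums. DMSO replicate 1 held the lowest level of 10 leukocyte and 9 fibroblast markers, beside 27.2% of all tested genes. Of the 12 cardiomyocyte markers 11 were lower. The sums overlapped for 10 endothelial markers (545 to 630 against 463 to 666 CPM), 9 markers of smooth muscle and pericytes (658 to 865 against 637 to 989), 7 epicardial markers (21 to 27.8 against 21.6 to 46) and 8 neuronal and glial markers (16.9 to 21.8 against 14.4 to 37.4), and in the last of these lists 6 genes could be tested. Marker genes at 0 in a library numbered 1 in the epicardial list and 1 in the neuronal and glial list. In such bulk tissue, fewer cells of a type and less RNA per cell cannot be told apart, and the part of the cell mixture in the results below was not tested.

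None of the 10 members was called at the adjusted threshold of 0.05 with the quasi-likelihood test of edgeR, adjusted by Benjamini-Hochberg, and 0% of all tested genes were. With DESeq2, which called 1.41% of its tested genes, none of the members was called either. Unadjusted p-values under 0.05 were found for 2 members, beside 13.4% of all tested genes. They were Ryk, which was higher with LGK974 (6.26% of all tested genes had such a p-value and were higher), and Celsr2, which was lower (7.18%). These were also the 2 members whose groups did not overlap, beside 18.0% of all tested genes (10.7% higher and 7.27% lower). Neither share stood far from the background. Of the members, 5 had a higher and 5 a lower mean level with LGK974 by the fitted fold change. The median log2 fold change was 0.02, beside −0.13 over all tested genes. By role, all 4 receptor kinases had positive log2 fold changes (median 0.22), while the 3 transmembrane polarity genes (median −0.28) and both Prickle genes (median −0.51) had negative ones. This split by role was not stable, as the signs of Ror1, Ptk7, Vangl1 and Vangl2 turned in fits with 1 mouse left out. The p-values cover only the spread between these 6 mice.

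**Figure D1:**
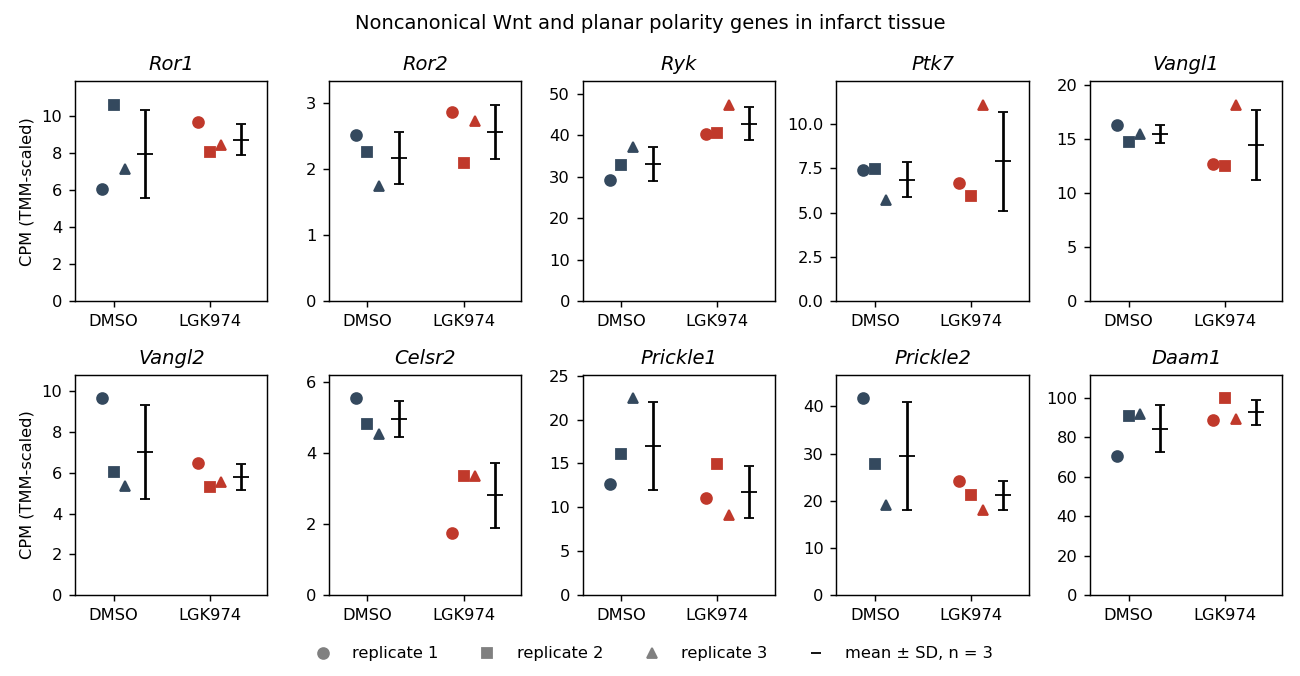
Level of each member in each mouse, in CPM on a linear axis that starts at 0 and differs between panels. Points are the 3 LGK974 and 3 DMSO mice, and bars show the mean and SD. The groups are separated for Ryk (40.3 to 47.4 against 29.2 to 37.3 CPM) and Celsr2 (1.76 to 3.34 against 4.54 to 5.53 CPM) and overlap for the other 8 members.

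Summed over the 10 members, the level was nearly the same in every mouse, at 205, 214 and 213 CPM under LGK974 and 201, 214 and 210 under DMSO. Daam1 alone gave 70.5 to 99.7 CPM of these sums. The 4 receptor kinases together reached 59.5, 56.7 and 69.6 CPM under LGK974 and 45.2, 53.1 and 51.9 under DMSO, with every LGK974 mouse above every DMSO mouse. Most of this sum was Ryk, at 40.3, 40.6 and 47.4 against 29.2, 32.8 and 37.3 CPM, and Ryk was separated by itself. Ror1, Ror2 and Ptk7 each overlapped between the groups. The Prickle genes together gave 35.4, 36.2 and 27.3 CPM under LGK974 and 54.3, 44 and 41.5 under DMSO. Every LGK974 mouse was below every DMSO mouse, although neither gene was separated by itself. Prickle2 gave 41.7 CPM of the sum in DMSO replicate 1, and its log2 fold change of −0.48 was −0.12 without that library. For the transmembrane polarity genes the sums were 21, 21.2 and 27.1 CPM against 31.5, 25.5 and 25.4, and LGK974 replicate 3 lay above the lowest DMSO mice. No test was made on these sums, and how often sums of other genes separate the groups was not counted.

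Ryk encodes a Wnt receptor with a Wnt inhibitory factor domain and a kinase domain regarded as inactive, and lies at chr9:102834917-102908305 on the plus strand. It was expressed at 40.3, 40.6 and 47.4 CPM under LGK974 and at 29.2, 32.8 and 37.3 CPM under DMSO. The lowest LGK974 mouse was thus above the highest DMSO mouse. The means were 42.8 ± 3.97 and 33.1 ± 4.05 CPM (SD, n = 3 each), and the fitted log2 fold change was 0.37 (standard error 0.158, unadjusted p = 0.0483, adjusted p = 0.368 by edgeR's test). Ryk lay far above the background of every library, at 15.2 times in DMSO replicate 1 and 62.2 to 1.41e+03 times in the others. With the length of its leading transcript these values were 14.8 and 60.4 to 1.37e+03 times. With each library's background subtracted from the counts, the levels were 40, 38.6 and 43.9 against 33.8, 32.9 and 35.1 CPM, still without overlap, and the log2 fold change was 0.27 (edgeR, unadjusted p = 0.0451, adjusted p = 0.359). Without DMSO replicate 1 it was 0.30 (edgeR, unadjusted p = 0.0893, adjusted p = 0.514), and with the replicate number as a block it was 0.37 (edgeR, unadjusted p = 0.0636, adjusted p = 0.336). The fibroblast and leukocyte marker sums were also higher with LGK974, while the sums of the other marker lists overlapped, and any link to Ryk was not tested.

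Ror1 and Ror2 are paired receptor tyrosine kinases that bind Wnt5a through a Frizzled-like domain, and their expression is known chiefly from embryonic and mesenchymal cells. Ror1, at chr4:100095791-100444765 on the plus strand, was expressed at 9.65, 8.04 and 8.44 CPM under LGK974 and at 6.06, 10.6 and 7.12 CPM under DMSO. The DMSO mice thus held both the highest and the lowest level. Its log2 fold change was 0.14 (standard error 0.246, adjusted p = 0.793 by edgeR's test). Background reached 75.2% of the counts per kb of Ror1 in DMSO replicate 1, and without that mouse the log2 fold change was −0.0021. On counts less background it was 0.43 (standard error 0.516, adjusted p = 0.706 by edgeR's test).

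Ror2, at chr13:53109312-53286124 on the minus strand, was expressed at 2.86, 2.09 and 2.72 CPM under LGK974 and 2.51, 2.25 and 1.74 CPM under DMSO. The groups overlapped, and the log2 fold change was 0.24 (standard error 0.34, adjusted p = 0.732 by edgeR's test). In DMSO replicate 1 background amounted to 82.4% of its counts per kb, and 18 of its 100 counts were left after subtraction. This holds for a mean transcript length of 2.62 kb, and with the 3.98 kb of its leading transcript Ror2 was at 0.798 times the background there. On counts less background the groups did not overlap, at 2.55, 1.87 and 2.5 against 0.56, 1.73 and 1.53 CPM, and the log2 fold change was 0.85 (standard error 0.54, adjusted p = 0.469 by edgeR's test). Without DMSO replicate 1 the log2 fold change was 0.38 on the counts as deposited.

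Ptk7 encodes a kinase-dead receptor that takes part in planar polarity in vertebrates, and lies at chr17:46564471-46629504 on the minus strand. Its levels were 6.66, 5.95 and 11.1 CPM under LGK974 and 7.41, 7.47 and 5.72 CPM under DMSO. LGK974 replicate 3 was the highest and the other LGK974 mice lay within the DMSO range. The fitted log2 fold change was 0.20 (standard error 0.282, adjusted p = 0.727 by edgeR's test), and it was −0.05 without LGK974 replicate 3. Background was 42.3% of the counts per kb of Ptk7 in DMSO replicate 1, and on counts less background the log2 fold change was 0.34.

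Celsr2 encodes a large atypical cadherin with a G protein-coupled receptor domain that joins the polarity complexes of neighbouring cells. It lies at chr3:108390851-108415552 on the minus strand. Its levels were 1.76, 3.34 and 3.34 CPM under LGK974 and 5.53, 4.82 and 4.54 CPM under DMSO. Every LGK974 mouse was below every DMSO mouse, and DMSO replicate 1 was the highest. The means were 2.81 ± 0.914 and 4.96 ± 0.508 CPM (SD, n = 3 each), and the log2 fold change was −0.82 (standard error 0.323, unadjusted p = 0.0354, adjusted p = 0.368 by edgeR's test).

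The level of Celsr2 was close to background in the library where it was highest. Its counts per kb were 1.14 times the background in DMSO replicate 1, 3.64 and 16.5 times in DMSO replicates 2 and 3, and 2.48, 10.4 and 39.5 times in LGK974 replicates 1, 2 and 3. With the length of its leading transcript, 10.6 kb in place of 6.11 kb, it was at 0.659 times the background in DMSO replicate 1. After subtraction at 6.11 kb, 28 of 220 counts were left in that library. On counts less background the levels were 1.05, 2.88 and 3.02 against 0.871, 3.57 and 4.03 CPM, so that the groups overlapped, and the log2 fold change was −0.29 (edgeR, unadjusted p = 0.677, adjusted p = 0.851). Without DMSO replicate 1 and with no subtraction it was −0.73 (edgeR, unadjusted p = 0.0531, adjusted p = 0.459), and with both it was −0.71 (edgeR, unadjusted p = 0.157, adjusted p = 0.552). With the replicate number as a block it was −0.87 (edgeR, unadjusted p = 0.0401, adjusted p = 0.276).

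**Figure D2:**
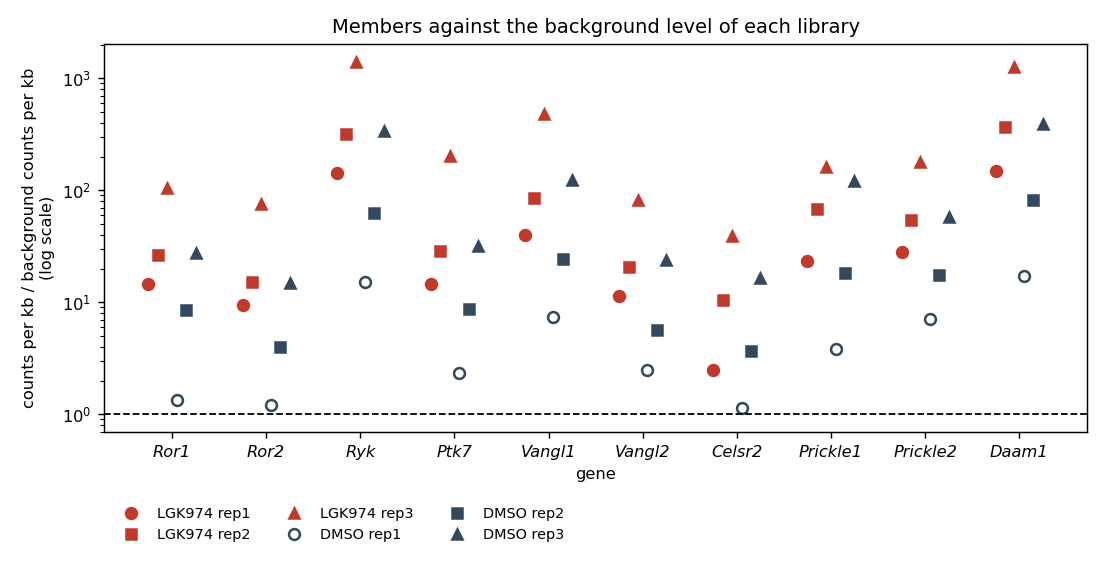
Counts per kb of transcript of each member, divided by the median counts per kb of 1780 chemosensory receptor genes in the same library, on a log axis. Points are the 6 mice and the line at 1 is the background. Celsr2, Ror1 and Ror2 lie at 1.14 to 1.33 times the background in DMSO replicate 1, and Ryk and Daam1 at 15.2 and 17.2 times.

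Vangl1 and Vangl2 are transmembrane core polarity proteins that recruit Prickle to the membrane. Vangl1, at chr3:102153583-102204693 on the minus strand, was expressed at 12.7, 12.5 and 18.2 CPM under LGK974 and at 16.3, 14.7 and 15.5 CPM under DMSO. LGK974 replicate 3 was the highest and the other LGK974 mice were the lowest, and the log2 fold change was −0.094 (standard error 0.19, adjusted p = 0.815 by edgeR's test). Vangl1 shares 8 exon bases with Gm16160 on the other strand, and no other member overlaps an annotated exon of another gene.

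Vangl2, at chr1:172000960-172028444 on the minus strand, was expressed at 6.49, 5.32 and 5.56 CPM under LGK974 and at 9.65, 6.06 and 5.35 CPM under DMSO. DMSO replicate 1 was the highest, and DMSO replicate 3 lay among the LGK974 mice. The log2 fold change was −0.28 (standard error 0.271, adjusted p = 0.608 by edgeR's test). Without DMSO replicate 1, where background was 40.3% of its counts per kb, it was 0.041.

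Prickle1 and Prickle2 encode LIM domain proteins that bind Vangl on the inner side of the membrane. Prickle1, at chr15:93499114-93595891 on the minus strand, was expressed at 11.1, 14.9 and 9.11 CPM under LGK974 and at 12.6, 16.1 and 22.4 CPM under DMSO. Only LGK974 replicate 2 lay within the range of the DMSO mice. The log2 fold change was −0.54 (standard error 0.268, unadjusted p = 0.0802, adjusted p = 0.379 by edgeR's test). Without DMSO replicate 1 it was −0.70 (edgeR, unadjusted p = 0.0199, adjusted p = 0.37), and Prickle1 was then the only member with an unadjusted p-value under 0.05, where 11.0% of all tested genes had one. In that fit 2 DMSO mice stood against 3 LGK974 mice. The log2 fold change was −0.19 without DMSO replicate 3 and −0.33 without LGK974 replicate 3 (edgeR, adjusted p = 0.692 and 0.786). Most cardiomyocyte markers were also lower with LGK974, with overlapping sums, and any link to Prickle1 was not tested.

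Prickle2, at chr6:92370908-92706155 on the minus strand, was expressed at 24.3, 21.2 and 18.1 CPM under LGK974 and at 41.7, 27.8 and 19.1 CPM under DMSO. DMSO replicate 1 was far above the others, and DMSO replicate 3 lay between LGK974 replicates 2 and 3. The log2 fold change was −0.48 (standard error 0.279, adjusted p = 0.425 by edgeR's test), and without DMSO replicate 1 it was −0.12. Background was 14% of its counts per kb in that library, and on counts less background the log2 fold change was −0.57.

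Daam1 encodes a formin that binds Dishevelled and nucleates actin filaments, and lies at chr12:71831078-71992333 on the plus strand. It was expressed at 88.7, 99.7 and 89.4 CPM under LGK974 and 70.5, 91 and 91.7 CPM under DMSO. DMSO replicate 1 was the lowest and the other 5 mice lay close together. The log2 fold change was 0.13 (standard error 0.169, adjusted p = 0.698 by edgeR's test), and without DMSO replicate 1 it was 0.036.

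**Figure D3:**
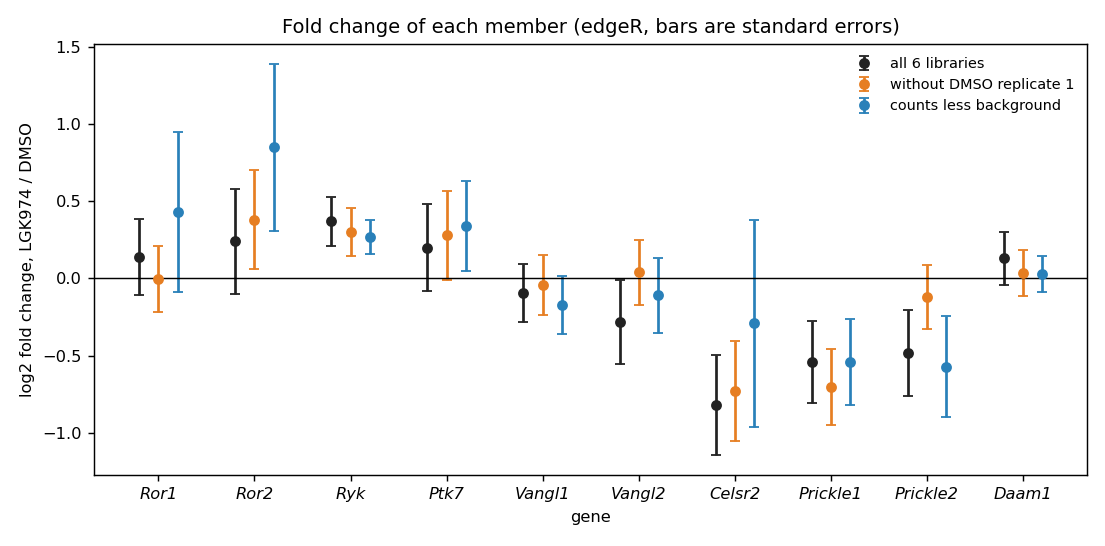
Log2 fold change of LGK974 against DMSO for each member with its standard error, from edgeR's test on the counts of all mice, without DMSO replicate 1, and on counts less background. The value of Celsr2 moves from −0.82 to −0.29 with background subtracted, that of Ror2 from 0.24 to 0.85, and that of Ryk from 0.37 to 0.27.

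Levels were compared between genes only per length, with the authors' TPM, a value scaled to transcript length and to the library, summed per gene. Daam1 had the highest median over the 6 mice at 16.9 TPM (range 9.14 to 28.5), followed by Ryk at 14.8 (9.86 to 32.4). Then came Vangl1 at 3.58 (2.36 to 15.3), Prickle2 at 3.37 (2.13 to 4.11) and Prickle1 at 3.25 (2.1 to 5.45). Lowest were Ptk7 at 1.59, Ror1 at 1.46, Vangl2 at 1.24, Ror2 at 0.942 and Celsr2 at 0.602 TPM. The ranges of all neighbours in this order overlapped over the mice. Within a mouse, Ryk exceeded Vangl1 in 6 of 6 libraries and Ptk7 exceeded Ror1 in 6 of 6, while Daam1 exceeded Ryk in 4 and Prickle2 exceeded Prickle1 in 3. The high TPM of Vangl1 in LGK974 replicate 3 (15.3) came with counts on its short annotated transcripts, and by CPM per kb of the leading transcript Vangl1 ranked below both Prickle genes, at a median of 2.31 against 3.32 for Prickle1 and 2.93 for Prickle2.

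The annotation holds 44 transcripts of the 10 members, of which 29 had enough counts to be tested. No transcript was called at the adjusted threshold of 0.05 in edgeR's test over 58618 transcripts, and 0% of all transcripts were. An unadjusted p-value under 0.05 was found for 1, Ryk-203, beside 5.28% of all transcripts tested. Kallisto divides reads between transcripts that share most of their sequence, so the shares below are estimates of the program. How often the shares of other genes' transcripts do not overlap was not counted.

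Ryk-203, with the 9 bases in capitals above, had 2298, 1339 and 2017 estimated counts under LGK974 and 636, 797 and 878 under DMSO. It made up 67.1, 61.5 and 66.7% of the counts of Ryk under LGK974 and 54.7, 50.2 and 57.8% under DMSO, without overlap. Its log2 fold change was 0.66 (standard error 0.212, unadjusted p = 0.0174, adjusted p = 0.853 by edgeR's test), and that of Ryk-201, without these bases, was 0.21. In DMSO replicate 1 a further transcript, Ryk-204, held 19.8% of the counts, against 1.54 to 4.33% in the other libraries. As a share of Ryk-201 and Ryk-203 alone, Ryk-203 made up 68.8, 64.6 and 70.6% against 72.4, 53.3 and 60.7%, and the groups overlapped (68 ± 3.05 and 62.1 ± 9.67%, SD, n = 3 each). Ryk-201 and Ryk-203 also differ at their ends, so this share does not measure the 9 bases alone.

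For Daam1, the forms with the exon of 27 bases made up 51.6, 55 and 64.1% of the forms with and without it under LGK974 and 46, 55.5 and 59.8% under DMSO. The groups overlapped, at 56.9 ± 6.49 and 53.8 ± 7.04% (SD, n = 3 each). The transcript without the exon, Daam1-202, also has a start of its own, so its share reflects both. Daam1-205 had a log2 fold change of 0.44 (unadjusted p = 0.0641 by edgeR's test), Daam1-202 one of 0.11 and Daam1-201 one of −0.28.

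For Prickle1, the transcript of the upstream start with 39 CG, Prickle1-201, made up 60.3, 18.6 and 41.1% of the gene under LGK974 and 37.8, 28.8 and 51.7% under DMSO. The highest and the lowest share were both those of LGK974 mice. The share of Prickle2-201 ranged from near 0 to 68.8% and that of Prickle2-204 from 0.73 to 96.8%, with wide spread within both groups. In Ror2, Ror2-201 held 65.3, 54.1 and 75% under LGK974 and 30.5, 0 and 95.8% under DMSO. Ptk7-202, a transcript that starts downstream within the gene, held 38.4% of Ptk7 in DMSO replicate 1 and 4.77 to 21.8% in the other libraries. Ror1 has a single annotated transcript.

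Celsr2-206, a shorter transcript of Celsr2, had 13, 9 and 0 estimated counts under LGK974 and 33, 54 and 22 under DMSO. It made up 8.5, 5.24 and 0% of Celsr2 under LGK974 and 15.1, 23.4 and 11.6% under DMSO, without overlap. Celsr2-206 is 3486 bases long, so its 33 counts in DMSO replicate 1 lay below the background of 31.5 counts per kb there. Its log2 fold change was −2.88 (standard error 1.29, unadjusted p = 0.0618, adjusted p = 0.853 by edgeR's test), from few counts. The long transcript Celsr2-201, with 121, 170 and 209 against 183, 173 and 162 counts, had a log2 fold change of −0.60.

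**Figure D4:**
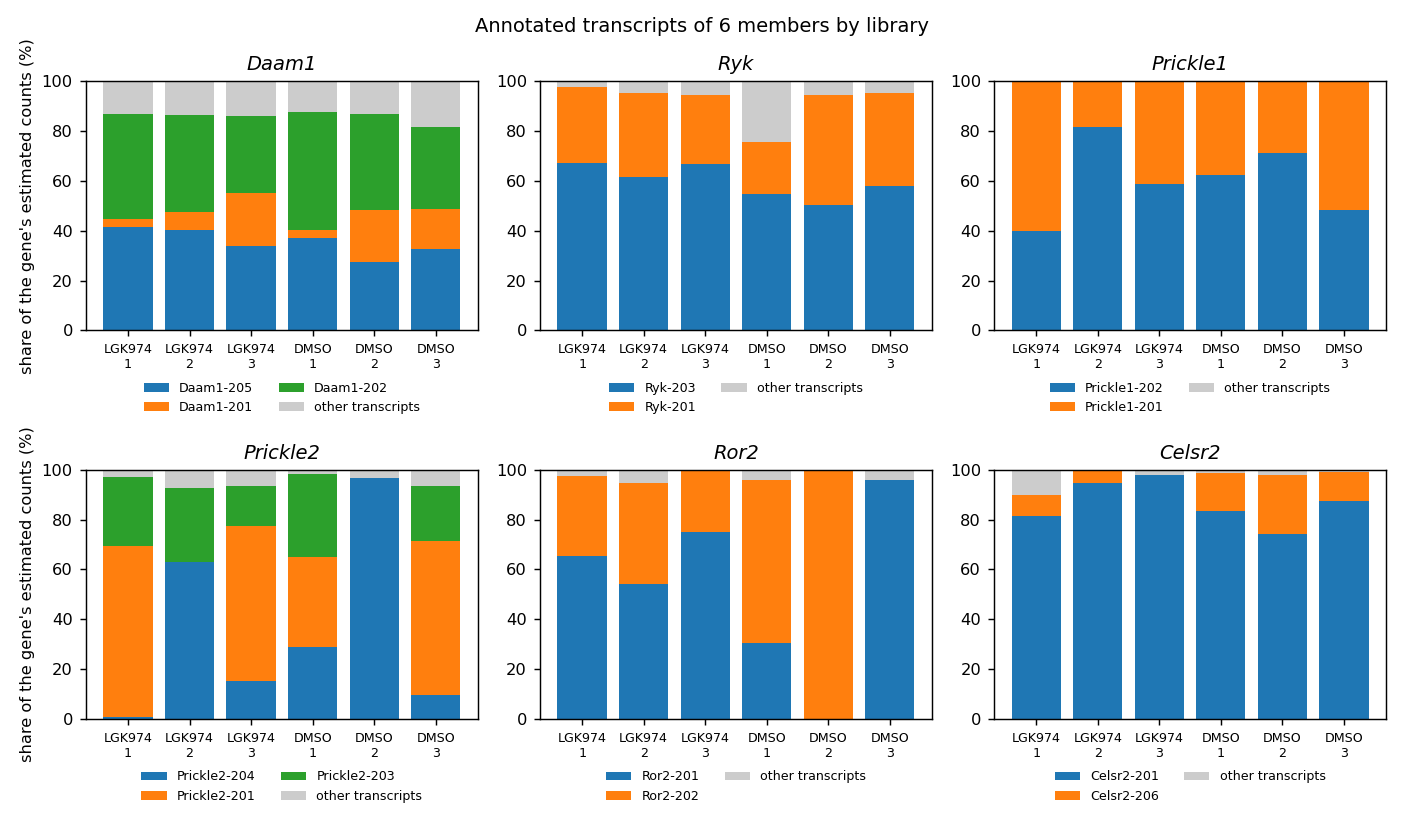
Share of each gene's estimated counts held by its named transcripts in each of the 6 mice, in percent, as stacked bars that start at 0. Ryk-203 holds 61.5 to 67.1% of Ryk under LGK974 and 50.2 to 57.8% under DMSO, while the shares within Prickle1 and Prickle2 vary widely between mice of one group.

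Around the members, a list of 57 further genes of the same pathways was read from the same fit, grouped by role, and all 57 could be tested. None was called at the adjusted threshold of 0.05 with edgeR, 26 were higher and 31 lower with LGK974, and the median log2 fold change was −0.028 beside −0.13 over all tested genes. Unadjusted p-values under 0.05 were found for 3 genes, Cthrc1, Musk and Mapk10, beside 13.4% of all tested genes. The groups did not overlap in 9 genes, 6 higher and 3 lower, beside 18.0% of all tested genes. Both shares of the list were below those over all genes. DMSO replicate 1 held the highest level of 14 of the 57 genes and the lowest of 24, while over all tested genes it held the highest level of 40.3% and the lowest of 27.2%.

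Among 6 ligands, 2 were higher and 4 lower (median −0.17). Wnt5b, a noncanonical ligand related to Wnt5a, was low, at 1.01, 1.25 and 1.25 CPM under LGK974 and 0.628, 0.393 and 0.442 CPM under DMSO. Its groups did not overlap, and the log2 fold change was 1.26 (standard error 0.583, unadjusted p = 0.0636, adjusted p = 0.369 by edgeR's test) and 1.50 without DMSO replicate 1 (edgeR, unadjusted p = 0.0202, adjusted p = 0.37). At this low level the value depended on background, and on counts less background it was 3.15 (standard error 1.58, adjusted p = 0.38 by edgeR's test). Wnt4 had a log2 fold change of −0.56 (edgeR, unadjusted p = 0.242, adjusted p = 0.529), and −0.0066 without DMSO replicate 1. Wnt5a, named here after its values were seen because it is the best known ligand of Ror1 and Ror2, was expressed at 4.56, 7.67 and 5.59 against 9.4, 5.98 and 6.78 CPM, with overlap.

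Of 9 receptors, co-receptors and cofactors, 6 were higher and 3 lower (median 0.28). Cthrc1, a secreted protein that stabilizes the binding of Wnt to Frizzled and Ror2 and is known from activated fibroblasts, was expressed at 3.37, 2.33 and 9.9 CPM under LGK974 and 1.38, 2.34 and 1.79 CPM under DMSO. LGK974 replicate 3 was far above all others, and LGK974 replicate 2 lay within the DMSO range. The log2 fold change was 1.50 (standard error 0.559, unadjusted p = 0.0289, adjusted p = 0.368 by edgeR's test). The fibroblast markers had their highest sum in LGK974 replicate 3 as well, but not as a uniform list. Col1a1, Col1a2, Col3a1, Postn, Ddr2 and Thy1 were highest in that mouse, while Dcn was at its lowest (237 CPM). Pdgfra, Lum and Dpt were lower there than in the other LGK974 mice. Any link to Cthrc1 was not tested. Musk, the receptor kinase of the neuromuscular junction, was expressed at 0.318, 0.485 and 0.298 CPM against 2.64, 0.621 and 0.737 CPM. DMSO replicate 1 was far above the others. Its log2 fold change was −1.86 (standard error 0.778, unadjusted p = 0.0452, adjusted p = 0.368 by edgeR's test), and −0.87 without that library (edgeR, unadjusted p = 0.207, adjusted p = 0.643).

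Mapk10, which encodes the JNK isoform JNK3 of brain, heart and testis, was expressed at 9.38, 10.5 and 8.75 CPM under LGK974 and 15.7, 12.1 and 11.5 CPM under DMSO. The groups did not overlap, and the log2 fold change was −0.46 (standard error 0.187, unadjusted p = 0.0408, adjusted p = 0.368 by edgeR's test) and −0.29 without DMSO replicate 1 (edgeR, unadjusted p = 0.115, adjusted p = 0.554).

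In the remaining roles described here, no gene had an unadjusted p-value under 0.05. Of 10 other core polarity genes 4 were higher and 6 lower (median −0.09), and the smallest p-values were those of Prickle3 (log2 fold change −0.42, unadjusted p = 0.11, adjusted p = 0.408 by edgeR's test) and Sec24b, which carries Vangl2 out of the endoplasmic reticulum (0.30, unadjusted p = 0.118, adjusted p = 0.416 by edgeR's test). In the Fat and Dachsous system, 2 of 4 genes were higher (median 0.15). The cadherin Dchs1 had a log2 fold change of 0.32 (edgeR, unadjusted p = 0.142, adjusted p = 0.44) without overlap, and Dchs2 one of −0.40 (edgeR, unadjusted p = 0.383, adjusted p = 0.643). The sign of Dchs2 turned to 0.19 without DMSO replicate 1 and to 1.68 on counts less background. All 4 polarity effectors of the cilium base were lower (median −0.33), and 3 of them were highest in DMSO replicate 1. Wdpcp and Intu had log2 fold changes of −0.67 and −0.37 (edgeR, adjusted p = 0.488 and 0.499), and of −0.051 and −0.062 without that library. In the calcium arm 5 of 11 genes were higher (median −0.017), with log2 fold changes of 0.24 for the kinase gene Prkca and 0.34 for the transcription factor gene Nfatc1 (edgeR, adjusted p = 0.459 and 0.465).

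**Figure D5:**
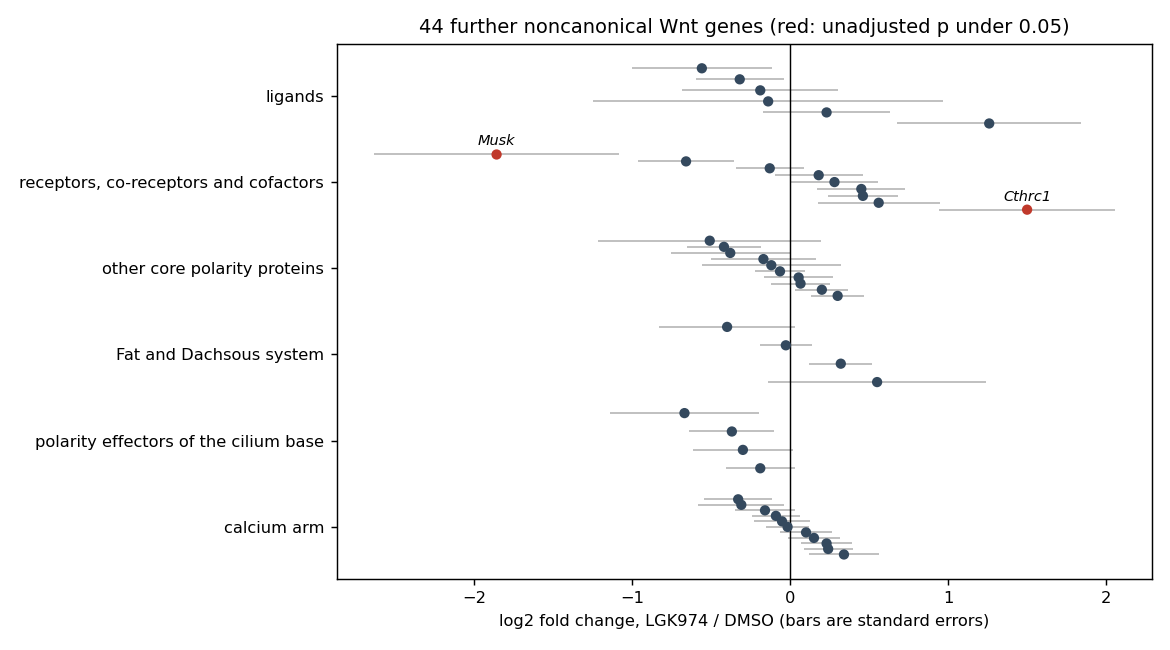
Log2 fold change of LGK974 against DMSO for 44 of the 57 further genes, in 6 roles. Points are single genes, bars are standard errors, and red marks an unadjusted p-value under 0.05. Medians of the roles run from −0.33 for the effectors of the cilium base to 0.28 for the receptors, co-receptors and cofactors, and single genes from −1.86 (Musk) to 1.50 (Cthrc1).

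The pattern of each member over the 6 libraries was compared with those of 17953 other protein-coding genes, as the root mean square difference of log2 CPM after centring each gene on its mean. This describes these libraries and carries no test, and all genes share the same 6 libraries and their depth. Ryk was most like Med14 and Dnajc9, with differences of 0.0156 and 0.02 where the spread of Ryk itself was 0.225. Daam1 was most like Hspd1 and Atmin (0.0161 and 0.0181, own spread 0.153), and Prickle1 most like Tbc1d16 (0.0446, own spread 0.412). Celsr2 had the least close match, Kcnrg and Optc at 0.119 and 0.125, with a spread of 0.536. The nearest gene was Glrx for Ror1 (0.0753), Lca5 for Ror2 (0.0578), Trim27 for Ptk7 (0.0698), Zfp37 for Vangl2 (0.041) and Pcdhb19 for Prickle2 (0.0668). For Vangl1 it was Nfatc4, a gene of the calcium arm (0.039).

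Between members, Prickle2 and Vangl2 were the most alike, with a difference of 0.166, followed by Ryk and Daam1 at 0.171. Prickle2 and Vangl2 shared their highest level in DMSO replicate 1, and Ryk and Daam1 their lowest. Set beside the marker lists, Ryk lay nearest to the fibroblast list (0.153). The smooth muscle and pericyte list (0.18) and the endothelial list (0.181) were almost as near to Ryk, and the leukocyte list lay at 0.321. Daam1 was nearest to the endothelial list (0.107), Prickle1 to the cardiomyocyte list (0.171), and Prickle2 and Vangl2 to the neuronal and glial list (0.124 and 0.228). The neuronal and glial sum was highest in DMSO replicate 1 as well, at 37.4 CPM against 14.4 to 21.8 CPM in the other libraries. Of the 6 tested genes of that list, 4 were highest in DMSO replicate 1, which also had the highest background. There, background was 40.3% of the counts per kb of Vangl2 and 14% of those of Prickle2. The part of background in this likeness was not tested.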

How the data were processed

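Total RNA from infarct tissue of 6 mice was sequenced. According to the labels, ribosomal RNA was depleted with RiboZero and libraries were made with a capture kit, RNA Access. The authors quantified Ensembl transcripts of GRCm38 with Kallisto and deposited an estimated count, a TPM value and transcript lengths for each of 118489 transcripts per library. The program's version, trimming and strand setting are not given in the sources used here.

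From these, 116816 transcripts (98.6%, with 99.6 to 99.7% of the counts) were joined to 36047 genes with the GENCODE annotation, and the estimated counts of a gene were added up and rounded. Reads shared between similar genes or transcripts stay divided as Kallisto left them. Genes reaching 10 counts in 3 or more libraries entered the quasi-likelihood test of edgeR (version 4.0.16 in R 4.3.3, TMM normalization, treatment only, Benjamini-Hochberg adjustment over 20094 genes, threshold 0.05). The methods of the study named DESeq2, which was run as an alternative (version 1.42.0), as was limma-voom (3.58.1). Levels are in CPM with TMM factors of 0.816 to 1.4, and log2 CPM used a prior count of 2. Background was the median counts per kb over 1780 chemosensory receptor genes, with gene lengths weighted by the TPM of their transcripts. This length is below that of the leading transcript for most members, so their counts per kb and the counts less background depend on it. Depth was 41579787 to 80398211 estimated counts, and precision was limited by the 3 mice per group more than by counting. The main fit was also run on simulated counts with fold changes larger than that of any member. That run therefore does not show whether changes of the members' size could be found. Tables and figures used Python 3.11.15, NumPy 2.4.6, pandas 2.3.3 and matplotlib 3.10.9.

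Groups and replicate numbers came from the sample titles. The members, lists, markers and alternatives were chosen with earlier results of these data known. Named genes were all members, the 2 genes with the smallest p-values in each role of the wider list (1 role of 13 genes is not reported here by itself, though its genes are in the counts over the list, and Mapk10 is named from it), transcripts with the largest mean count or at least 20% of a gene in 1 library, and the 2 most similar protein-coding genes per member. Replicate numbers occur in both groups, but the mice are different animals. Deviations of mice with the same number correlated at 0.475, −0.0482 and 0.391, and those of mice with different numbers at −0.518 to 0.1. The values of replicates 1 and 3 thus lay above that range. Deviations from a group's mean cancel out within the group, so these correlations depend on each other. Background also fell from replicate 1 to replicate 3 in both groups, at 9.83, 2.82 and 0.882 counts per kb under LGK974 and 31.5, 10.5 and 1.83 under DMSO. Whether the numbers mark a shared factor was not tested. As they are known only as labels, the main fit left them out, and the replicate block was run as an alternative. The alternatives were relative log expression size factors, DESeq2, limma-voom, no filter, at least 1 CPM in 3 libraries, counts scaled from TPM, no mitochondrial genes, counts less background, the replicate block and leaving out each mouse. Counts less background without DMSO replicate 1 was chosen after seeing the data.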

Additional observations from a re-analysis of the deposited data

How the results depend on the processing

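No member had an adjusted p-value under 0.05 under any of the 16 alternatives. Over all genes, 315 had one with DESeq2 (1.41%), 1206 without a filter on low counts, 1 on counts less background without DMSO replicate 1, and 0 to 2 with 1 mouse left out, with 2 without DMSO replicate 1. The members at an unadjusted p-value under 0.05 numbered 2 in the main fit. Only Celsr2 was left with relative log expression size factors, DESeq2 and the replicate block, and only Ryk on counts less background. On counts less background without DMSO replicate 1, the 1 member was Prickle1 (edgeR, unadjusted p = 0.0189). The number was 0 without a filter and on counts scaled from TPM, and 0 to 2 with 1 mouse left out. The 2 members without DMSO replicate 3 were Ryk and Prickle2 (edgeR, unadjusted p = 0.0194 and 0.031). The 3 genes of the wider list became 1 with the replicate block, 0 on counts less background without DMSO replicate 1, and 0 to 6 with 1 mouse left out (0 without LGK974 replicate 3 and 6 without DMSO replicate 3). The members' median log2 fold change was 0.16 without a filter, where the median of all genes was −0.55, and −0.11 to 0.10 with 1 mouse left out. With DESeq2 the median of all genes was −0.74.

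Signs turned for 4 members with 1 mouse left out, with ranges of −0.0021 to 0.39 for Ror1, −0.05 to 0.43 for Ptk7, −0.22 to 0.062 for Vangl1 and −0.39 to 0.041 for Vangl2. Vangl1 was also at 0.061 without a filter, and Vangl2 at 0.10 on counts less background without DMSO replicate 1. The sign of Ryk (0.27 to 0.57), Ror2 (0.13 to 0.85), Celsr2 (−0.95 to −0.29), Prickle1 (−0.72 to −0.19), Prickle2 (−0.60 to −0.12) and Daam1 (0.0031 to 0.30) was the same under all 16. The cause of these shifts was not tested. The replicate block gave 3312 genes at an unadjusted p-value under 0.05 against 2699 without it, and turned no member's sign. With 3 mice per group and a common dispersion of 0.238 (0.0825 without DMSO replicate 1), differences of the sizes seen here could not be told from the spread between mice. Celsr2, Ror1 and Ror2 were limited most by background in DMSO replicate 1. Background there was also 42.3% of the counts per kb of Ptk7, 40.3% of those of Vangl2 and 25.9% of those of Prickle1.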
